A study of Mus musculus with 12 samples.

Results

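MT∆Ecad and Py2T LT are murine breast cancer cell lines, both described by the submitters as mesenchymal, and their transcriptomes were compared under a control siRNA. The comparison used every library of the 2 lines that had received the control siRNA (siCtl): 2 of MT∆Ecad and 2 of Py2T LT, 4 of the 12 libraries in the series. The series tested knockdown of Nrf2 (gene Nfe2l2) in these lines and in PyMT-1099 LT. Cells had been transfected for 48 hours with Nrf2-targeting (siNrf2) or non-targeting siRNA from Dharmacon, and rRNA-depleted total RNA was sequenced as single reads of 81 nucleotides. MT∆Ecad carries the strain label MMTV-Neu, whereas Py2T LT and PyMT-1099 LT carry MMTV-PyMT. The tissue label was mammary tumour for all 3 lines, and each group was described as biological duplicates of a single line. All 6 groups shared the transfection, the medium with fetal bovine serum and the library protocol. The lines therefore differ in oncogene, in tumour of origin and in route to the mesenchymal state, and these cannot be told apart with 1 line of each kind. As background, MT∆Ecad lacks a functional E-cadherin gene, whereas LT lines are known as cells kept for a long term in TGF-beta; whether TGF-beta was in the medium at harvest is not given in the sources used here.

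Epithelial-mesenchymal transition (EMT) is the process in which epithelial cells loosen cadherin junctions, lose apical-basal polarity and acquire a motile, matrix-producing state. Transcription factors of the Snail, Zeb and Twist families repress junction genes through E-box sequences, and TGF-beta is a well-known inducer of them. Loss of E-cadherin, the main adhesion receptor of epithelial junctions, can itself start the transition in mammary tumour cells, and mesenchymal lines can keep different parts of the programme.

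The 4 libraries held 27088970 to 37070635 reads in genes, so that 1 CPM (read counts scaled to a common library total) stood for 27.1 to 37.1 reads. Of 24454 gene IDs, 11736 had at least 1 CPM in at least 2 of the 4 libraries and were tested, and these held 99.9% of the reads. The test was limma on log2(CPM + 1), a scale that understates the change of low genes, with Benjamini-Hochberg adjustment over all tested genes. A gene was called higher or lower in MT∆Ecad at an adjusted p under 0.05 and a log2 difference of at least 1. A total of 561 genes passed the expression filter through MT∆Ecad only and 603 through Py2T LT only, and such genes had to differ in level. The spread was estimated from the control-siRNA duplicates of all 3 lines, PyMT-1099 LT included, and moderated over genes. With 2 cultures per line, p-values measure the spread between duplicate cultures of a line. In bulk RNA, fewer cells with a transcript and less RNA per cell cannot be told apart.

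The baseline difference between the lines was wide. Of 11736 genes, 2746 were called (23.4%), with 1488 higher in MT∆Ecad (12.7%) and 1258 lower (10.7%). These shares are the background for the counts of called genes given below for each gene group. A count near them says little about its group. A difference of at least 2 on the log2 scale was reached by 642 genes called higher and 564 called lower, and one of at least 5 by 84 and 104. The 2 values of MT∆Ecad and the 2 of Py2T LT did not overlap for 9327 genes (79.5%), so lack of overlap by itself said little about a gene. The median difference over all tested genes was -0.005. In a principal component analysis of the 6 control-siRNA libraries, the first 2 components held 55.3% and 42.8% of the variance.

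The label of MT∆Ecad was checked first. Cdh1, which encodes E-cadherin (chr8:106603350-106670247, GRCm38), had 0.454 and 0.332 CPM in MT∆Ecad and 12.5 and 15.2 CPM in Py2T LT. All MT∆Ecad values were below all Py2T LT values, and the log2 difference was -3.41 ± 0.13 (SE; adjusted p = 6.1e-07, limma). The table is per gene, so reads from exons outside a deletion cannot be separated from the rest. Cdh1 was not silent in Py2T LT, and PyMT-1099 LT had 47.8 and 51.6 CPM. Vim, the intermediate filament protein vimentin, had 4972 and 5049.6 CPM in MT∆Ecad and 1855 and 1598 CPM in Py2T LT. Vim was higher in MT∆Ecad by 1.54 ± 0.10 (adjusted p = 9.8e-06, limma), so its mRNA was abundant in both lines. Erbb2, the mouse gene for the receptor also called Neu, had 69.9 and 75.4 CPM in MT∆Ecad and 97.0 and 97.7 CPM in Py2T LT, a log2 difference of -0.42 ± 0.09. That difference had an adjusted p of 0.0045 (limma) but was under the fold threshold. Reads of the transgenes were not analysed here.

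Most markers of leukocytes, endothelium, fat and muscle had few or no reads, whereas some fibroblast markers were abundant. Ptprc, the pan-leukocyte gene for CD45, had 0.0324 and 0 CPM in MT∆Ecad and 0 and 0.0270 CPM in Py2T LT. Pecam1, an endothelial adhesion gene, had 0.0648 and 0 CPM in MT∆Ecad and 0.0337 and 0.108 CPM in Py2T LT. The fibroblast genes Dcn, Lum and Thy1 had 0 CPM in all 4 libraries, while of the 4 other fibroblast markers Pdgfrb and Col3a1 were higher and Col1a1 lower. The 7 fibroblast markers summed to 1634 and 1828 CPM in MT∆Ecad and 113 and 143 CPM in Py2T LT. Most of that sum in MT∆Ecad came from Col3a1 (895 and 949 CPM) and Pdgfrb (661 and 794 CPM), and Pdgfra, a PDGF receptor of fibroblasts, had 68.6 and 72.6 CPM in MT∆Ecad and 46.9 and 48.5 CPM in Py2T LT. The part of other cells in these levels was not tested. Of the leukocyte, endothelial, fibroblast, adipocyte and skeletal muscle markers listed, 2 of 7, 1 of 6, 4 of 7, 0 of 4 and 0 of 4 passed the expression filter. Single markers of these lists did differ: Csf1r, the receptor for colony-stimulating factor 1, had 1.07 and 1.11 CPM in MT∆Ecad and 13.9 and 19.02 CPM in Py2T LT, and was lower by a log2 difference of -3.05 ± 0.18 (adjusted p = 4.8e-06, limma). Cdh5, the cadherin of endothelium, had 0 and 0.0369 CPM in MT∆Ecad and 5.13 and 4.24 CPM in Py2T LT and was lower as well. Values for both genes did not overlap between the lines, and their cellular source was not tested.

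The epithelial programme was lower in MT∆Ecad. Of 41 listed genes for epithelial junctions, polarity and splicing, 27 were tested, of which 17 were lower, 3 higher and 7 not called, with a median difference of -1.66. Cldn4, which encodes a tight junction claudin, had 0 CPM in both MT∆Ecad libraries and 183 and 130.0 CPM in Py2T LT. Measured against the limit that a count of 0 allows (3 reads per library, averaged over both libraries), Cldn4 was at least 1506-fold lower in MT∆Ecad. Epcam, an epithelial adhesion molecule, had 0.130 and 0 CPM in MT∆Ecad and 16.7 and 18.7 CPM in Py2T LT. The lines did not overlap, and Epcam was lower by a log2 difference of -4.14 ± 0.11 (adjusted p = 1.2e-07, limma). Grhl2, a transcription factor that maintains epithelial identity, had 0 CPM in both MT∆Ecad libraries and 8.74 and 11.5 CPM in Py2T LT, at least 97.2-fold lower in MT∆Ecad. Esrp1, an epithelial splicing regulator, had 0 CPM in both MT∆Ecad libraries and 9.99 and 12.3 CPM in Py2T LT, at least 107-fold lower. PyMT-1099 LT had no read of Epcam and 0 and 0.0286 CPM of Esrp1, so among the 3 lines these transcripts were at more than traces in Py2T LT alone.

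Lamb3 and Lama3, which encode the beta3 and alpha3 chains of a laminin of epithelial basement membranes, were lower. Lamb3 (chr1:193294353-193343878) had 0.259 and 0.111 CPM in MT∆Ecad and 936 and 824 CPM in Py2T LT. Its log2 difference of -9.54 ± 0.11 (adjusted p = 1.9e-08, limma) was the most negative of all tested genes. Lama3 had 0.162 and 0.0738 CPM in MT∆Ecad and 57.3 and 65.5 CPM in Py2T LT, a log2 difference of -5.80 ± 0.13. Itgb4, the integrin beta4 subunit of hemidesmosomes, fell to 1.68 and 1.62 CPM in MT∆Ecad against 44.5 and 39.7 CPM in Py2T LT. PyMT-1099 LT had 619 and 581 CPM of Lamb3 but 0.897 and 1.23 CPM of Lama3.

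Ppl, which encodes the desmosome-associated protein periplakin, had 95.2 and 91.5 CPM in MT∆Ecad and 10.3 and 10.9 CPM in Py2T LT, and was higher by 3.02 ± 0.10 (adjusted p = 2.1e-07, limma). Among 8 tested keratins, 3 were higher, 2 lower and 3 not called. Krt18, a simple-epithelial keratin, had 212 and 232 CPM in MT∆Ecad and 1424 and 1198 CPM in Py2T LT, and was lower by a log2 difference of -2.55 ± 0.12. Its usual partner Krt8 had 770.0 and 874 CPM in MT∆Ecad and 1545 and 1297 CPM in Py2T LT, a difference of -0.79 that was not called. Krt7 and the basal keratin Krt14 went the other way. Krt7 had 1227 and 1398 CPM in MT∆Ecad and 348 and 283 CPM in Py2T LT, and Krt14 had 142 and 123 CPM in MT∆Ecad and 33.3 and 31.1 CPM in Py2T LT.

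Cadherin use differed between the lines beyond Cdh1. Of 12 tested cadherin genes, 3 were higher, 6 lower and 3 not called. Cdh2, the N-cadherin gene of mesenchymal and neural cells, had 215 and 215 CPM in MT∆Ecad and 13.7 and 14.3 CPM in Py2T LT, higher by 3.85 ± 0.08 (adjusted p = 4.1e-08, limma). Cdh6, a type II cadherin of kidney and neural crest, had 0 CPM in both MT∆Ecad libraries and 119.6 and 129 CPM in Py2T LT, at least 1193-fold lower in MT∆Ecad. Cdh10, another type II cadherin, had 0 CPM in both MT∆Ecad libraries and 36.5 and 46.8 CPM in Py2T LT, at least 400.3-fold lower. PyMT-1099 LT resembled MT∆Ecad for Cdh2 (208 and 205 CPM) and Py2T LT for Cdh6 (449.7 and 499 CPM). Among catenins and other junction partners, Ctnna1 and Ctnnd1, which encode alpha- and p120-catenin, had differences of 0.02 and 0.19, and the plakophilin gene Pkp1 was lower with a difference of -3.70. Vcl, which encodes the actin linker vinculin, had 2319 and 2120.3 CPM in MT∆Ecad and 365 and 387 CPM in Py2T LT and was higher by 2.56 ± 0.09.

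**Figure D1:**
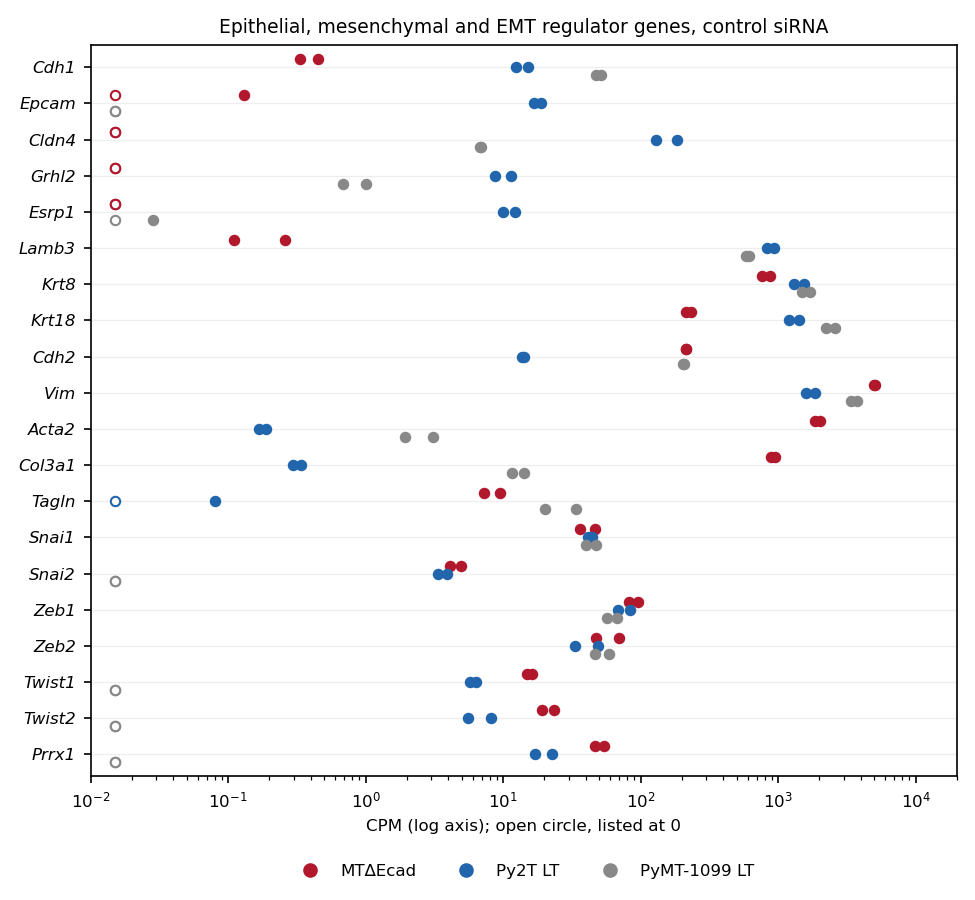
CPM on a log axis for 20 epithelial, mesenchymal and EMT regulator genes in the control-siRNA libraries of MT∆Ecad, Py2T LT and PyMT-1099 LT, 1 circle per library, open where the gene was listed at 0. Cldn4, Grhl2 and Esrp1 sit at 0 in both MT∆Ecad libraries and are all detected in both Py2T LT libraries, whereas Snai1 and Zeb1 overlap between these lines.

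Of the transcription factors that drive EMT, the Snail and Zeb genes were not called while several others were. Snai1 had 36.3 and 46.4 CPM in MT∆Ecad and 41.5 and 44.1 CPM in Py2T LT, a log2 difference of -0.06 with a 95% interval from -0.40 to 0.28. Zeb1 had 96.3 and 83.1 CPM in MT∆Ecad and 68.7 and 83.6 CPM in Py2T LT, a difference of 0.24. The values of Snai1, Zeb1 and Zeb2 overlapped between the lines, and those of Snai2 did not (4.08 and 4.95 CPM in MT∆Ecad, 3.91 and 3.37 CPM in Py2T LT, a difference of 0.25). Twist1, a basic helix-loop-helix factor, had 14.9 and 16.3 CPM in MT∆Ecad and 5.70 and 6.34 CPM in Py2T LT, higher by 1.24 ± 0.11 (adjusted p = 5.8e-05, limma). Twist2 and Prrx1, a homeobox factor of mesenchyme, were higher by 1.51 ± 0.18 and 1.32 ± 0.16. PyMT-1099 LT had no reads of Twist1, Twist2, Prrx1 or Snai2. In all, 9 of 25 tested EMT transcription factors were higher and 7 lower, with a median of 0.24.

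The factors lower in MT∆Ecad included some that were absent there. Foxc2, a forkhead factor of mesenchyme, had 0 CPM in both MT∆Ecad libraries and 37.5 and 37.8 CPM in Py2T LT, at least 362-fold lower in MT∆Ecad. Tbx3, a T-box factor of mammary development, had 0 CPM in both MT∆Ecad libraries and 10.5 and 10.0 CPM in Py2T LT. Hmga2, an architectural chromatin protein that TGF-beta induces, had 179 and 113 CPM in MT∆Ecad and 1048 and 1084 CPM in Py2T LT, a log2 difference of -2.90 ± 0.19 (adjusted p = 9.1e-06, limma). Its pseudogene Hmga2-ps1 was among the 15 most negative differences, and reads of the 2 copies may not be separable. Id1 and Id2, inhibitors of helix-loop-helix factors and targets of BMP signalling, were higher. Id1 had 45.0 and 58.0 CPM in MT∆Ecad and 9.28 and 8.04 CPM in Py2T LT. Id2 had 86.2 and 93.5 CPM in MT∆Ecad and 19.6 and 11.7 CPM in Py2T LT, and neither gene's values overlapped between the lines.

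Of 28 listed mammary lineage genes, 17 were not tested. Of the 11 tested, 7 were higher in MT∆Ecad and 3 lower, with a median of 1.87. Untested members went both ways at low levels. The luminal factor gene Elf5 had 0 CPM in both MT∆Ecad libraries and 0.540 and 0.782 CPM in Py2T LT. Lcn2 had 0.162 and 0.591 CPM in MT∆Ecad and 0 CPM in both Py2T LT libraries. Trp63, the basal-cell factor p63, had 5.15 and 5.65 CPM in MT∆Ecad and 0.0675 and 0 CPM in Py2T LT. Esr1, the estrogen receptor alpha gene, had 12.1 and 12.96 CPM in MT∆Ecad and 1.48 and 1.32 CPM in Py2T LT, and Gata3, a luminal transcription factor, had 84.7 and 94.3 CPM in MT∆Ecad and 17.4 and 20.4 CPM in Py2T LT. These markers of basal and of luminal cells were therefore both on the higher side, which does not hold for the whole list. The lower genes were Csn3, Procr and Aldh1a3, with differences of -3.57, -2.40 and -1.28. Csn3, the milk protein kappa-casein, had 0 and 0.0369 CPM in MT∆Ecad and 11.5 and 10.6 CPM in Py2T LT. The 6 Hoxa genes from Hoxa2 to Hoxa7 were higher, among them Hoxa7 with 12.5 and 13.8 CPM in MT∆Ecad and 0.337 and 0.189 CPM in Py2T LT. The tested Hoxb genes were not called.

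Contractile genes held the largest positive difference. Of 23 tested genes of the mesenchymal cytoskeleton, 12 were higher and 2 lower, with a median of 1.26. Acta2, smooth muscle alpha-actin (chr19:34240336-34255585), had 2014 and 1865 CPM in MT∆Ecad and 0.169 and 0.189 CPM in Py2T LT. The log2 difference was 10.68 ± 0.16 (adjusted p = 2e-08, limma), and PyMT-1099 LT had 3.09 and 1.94 CPM. Lmod1, the actin nucleator leiomodin of smooth muscle, had 37.9 and 40.0 CPM in MT∆Ecad and 0 CPM in both Py2T LT libraries, at least 428-fold higher in MT∆Ecad. Myl9, a myosin light chain, had 30.5 and 25.2 CPM in MT∆Ecad and 1.05 and 0.944 CPM in Py2T LT. Tagln, the actin-binding protein transgelin, had 9.52 and 7.31 CPM in MT∆Ecad and 0 and 0.0809 CPM in Py2T LT, far below Acta2 in reads, and PyMT-1099 LT had 34.2 and 20.1 CPM. Fscn1, the filopodial actin bundler fascin, was lower, with 31.8 and 27.6 CPM in MT∆Ecad and 484 and 414 CPM in Py2T LT, a difference of -3.87 ± 0.12. Myh11, the smooth muscle myosin heavy chain, was not tested, with at most 0.101 CPM in the 4 libraries.

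Promoters of the epithelial, contractile and interferon genes described here were searched for short motifs, and a few are shown because they carry a match upstream of a gene whose level differed. The sequences are the 250 bases before the annotated start, from RefSeq on GRCm38.p6, written 5′ to 3′ on the gene's strand, with capitals marking the motif. The first pair holds the E-box CAGGTG, which Snail and Zeb factors bind, read on both strands. Epcam lies at chr17:87635729-87635978 (plus strand), with matches 187 and 19 bases before the start, and Cldn4 at chr5:134946935-134947184 (minus strand), with a match 14 bases before it.
Epcam: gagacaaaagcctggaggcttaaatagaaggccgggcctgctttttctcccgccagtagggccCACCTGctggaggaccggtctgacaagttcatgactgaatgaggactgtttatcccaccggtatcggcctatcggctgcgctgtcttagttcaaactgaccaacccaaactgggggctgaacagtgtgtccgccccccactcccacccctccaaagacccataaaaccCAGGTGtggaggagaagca
Cldn4: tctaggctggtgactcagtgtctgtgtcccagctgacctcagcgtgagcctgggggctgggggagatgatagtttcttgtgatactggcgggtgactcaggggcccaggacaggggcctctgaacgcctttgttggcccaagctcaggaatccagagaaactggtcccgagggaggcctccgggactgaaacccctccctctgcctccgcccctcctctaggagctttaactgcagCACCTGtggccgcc
The E-box letters were present in 17.2% of 32851 RefSeq promoter windows of this length and in 17.6% of 9366 tested genes that had a window. They were present in 26.5% of 938 genes called lower and 17.8% of 1163 called higher. Of 13 tested epithelial junction genes with a window, 8 held the letters, of which 5 were lower in MT∆Ecad (Epcam, Elf3, Cldn4, Rab25 and Lamb3) and 3 were not called (F11r, Patj and Spint2). A match is a description of the letters and shows no binding.

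The second pair holds a CArG box, the motif of serum response factor, searched on both strands. Myl9 lies at chr2:156775214-156775463 (plus strand) with the match 161 bases before the start, and Cnn2, which encodes calponin 2, at chr10:79988350-79988599 (plus strand) with the match 56 bases before it.
Myl9: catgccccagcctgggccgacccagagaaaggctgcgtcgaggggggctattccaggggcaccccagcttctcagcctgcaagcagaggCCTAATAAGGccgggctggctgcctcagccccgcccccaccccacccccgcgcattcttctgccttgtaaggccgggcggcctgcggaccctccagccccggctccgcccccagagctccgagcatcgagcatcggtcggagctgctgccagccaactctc
Cnn2: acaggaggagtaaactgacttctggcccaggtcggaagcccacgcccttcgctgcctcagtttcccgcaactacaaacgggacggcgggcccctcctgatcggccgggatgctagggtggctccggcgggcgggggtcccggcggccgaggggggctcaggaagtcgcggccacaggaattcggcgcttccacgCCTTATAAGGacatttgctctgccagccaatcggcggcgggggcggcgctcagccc
A CArG box stood in 1.47% of all windows of this length and in 2 of 21 tested contractile genes with a window, the 2 shown. Cnn2 had 711 and 704 CPM in MT∆Ecad and 178 and 154 CPM in Py2T LT, higher by 2.09 ± 0.15 (adjusted p = 1.5e-05, limma). The window of Acta2 held none, which says only that these letters are not in its window.

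**Figure D2:**
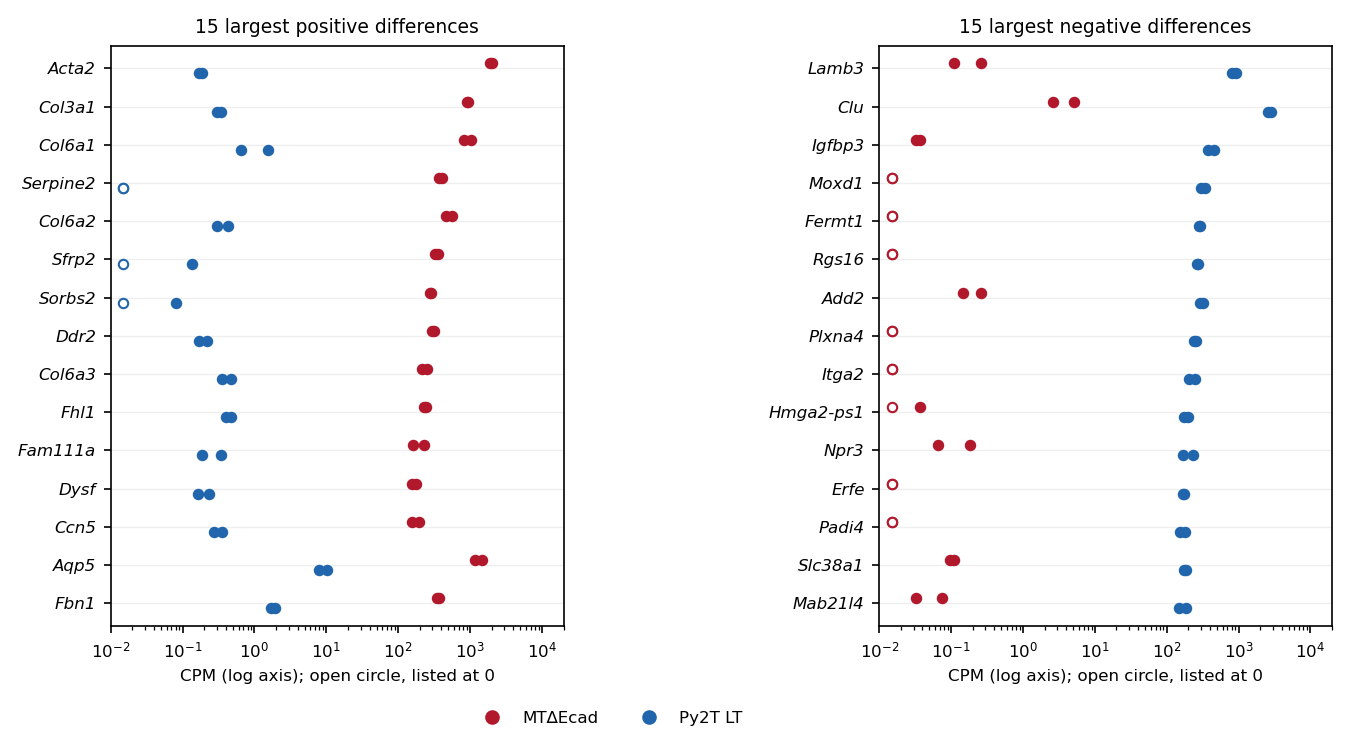
CPM on a log axis in each control-siRNA library for the 15 genes with the largest positive and the 15 with the largest negative called difference, MT∆Ecad circles drawn above Py2T LT circles and open where the gene was listed at 0. Every gene shown differs by a log2 difference of at least 7 in size, and in most the lower line is under 1 CPM.

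Interstitial and basement membrane matrix genes changed in both directions. Of 24 tested collagen genes, 12 were higher in MT∆Ecad, 8 lower and 4 not called. Col3a1, the fibrillar collagen III chain of loose connective tissue, had 895 and 949 CPM in MT∆Ecad and 0.337 and 0.297 CPM in Py2T LT, higher by 9.45 ± 0.12 (adjusted p = 1.9e-08, limma). The 3 chains of collagen VI, a microfibrillar collagen, moved together. Col6a1 had 825 and 1019 CPM in MT∆Ecad and 0.641 and 1.54 CPM in Py2T LT, and Col6a2 and Col6a3 had differences of 8.54 and 7.38. The neighbouring collagen IV genes Col4a1 and Col4a2 were both higher by 2.47, whereas Col4a3 and Col4a4, the chains of specialised basement membranes, were lower with differences of -1.81 and -2.89.

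Collagen I, the most familiar mesenchymal collagen, did not follow Col3a1. Col1a1 had 8.94 and 12.7 CPM in MT∆Ecad and 21.9 and 33.6 CPM in Py2T LT, a difference of -1.27 ± 0.23 (adjusted p = 0.0024, limma). Without Py2T LT replicate 2 its difference was -0.97 and the call was lost. Col1a2, its partner chain, had 27.9 and 28.1 CPM in MT∆Ecad and 17.2 and 24.01 CPM in Py2T LT and was not called. Col17a1, the hemidesmosome collagen, was lower, with 1.43 and 1.51 CPM in MT∆Ecad and 18.96 and 13.2 CPM in Py2T LT.

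Among matricellular proteins and cross-linkers, 21 of 40 tested genes were higher and 10 lower, with a median of 1.23. Fbn1, the microfibril protein fibrillin 1, had 351 and 373 CPM in MT∆Ecad and 1.92 and 1.70 CPM in Py2T LT. Thbs1, thrombospondin 1, which can activate latent TGF-beta, had 4501 and 3834 CPM in MT∆Ecad and 134 and 169 CPM in Py2T LT, higher by 4.78 ± 0.13 (adjusted p = 1.1e-07, limma). Loxl1, a lysyl oxidase that cross-links elastin, had 252 and 306 CPM in MT∆Ecad and 1.72 and 2.05 CPM in Py2T LT. Tnc, tenascin C of invasive tumour matrix, was the main exception: 15.8 and 29.8 CPM in MT∆Ecad and 2602 and 3038 CPM in Py2T LT, lower with a difference of -6.95 ± 0.25. Fn1, fibronectin, had 5248 and 5690.1 CPM in MT∆Ecad and 8609 and 9655 CPM in Py2T LT, a difference of -0.74 that was under the fold threshold.

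Proteases and integrins also divided. Of 30 tested proteases and inhibitors, 14 were higher and 8 lower. Serpine2, the inhibitor protease nexin 1, had 369 and 413 CPM in MT∆Ecad and 0 CPM in both Py2T LT libraries, at least 4294-fold higher in MT∆Ecad. Mmp14, a membrane collagenase, had 595 and 679 CPM in MT∆Ecad and 191 and 190.2 CPM in Py2T LT and was higher by 1.73 ± 0.09. Mmp9, the gelatinase B gene, had 0.0972 and 0.111 CPM in MT∆Ecad and 30.1 and 37.7 CPM in Py2T LT, a difference of -4.97 ± 0.14 (adjusted p = 1.1e-07, limma). Of 15 tested integrin genes, 3 were higher and 5 lower. Itga8, which pairs with beta1 in smooth muscle and mesenchyme, had 42.5 and 50.6 CPM in MT∆Ecad and 0.101 and 0.297 CPM in Py2T LT. Itga2, a collagen receptor subunit, had 0 CPM in both MT∆Ecad libraries and 202 and 249.7 CPM in Py2T LT, at least 2170.1-fold lower in MT∆Ecad. Fermt1, the epithelial kindlin that activates integrins, likewise had 0 CPM in both MT∆Ecad libraries and 295 and 278 CPM in Py2T LT. Itgb1, the shared beta1 subunit, had a difference of -0.56 and was not called.

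**Figure D3:**
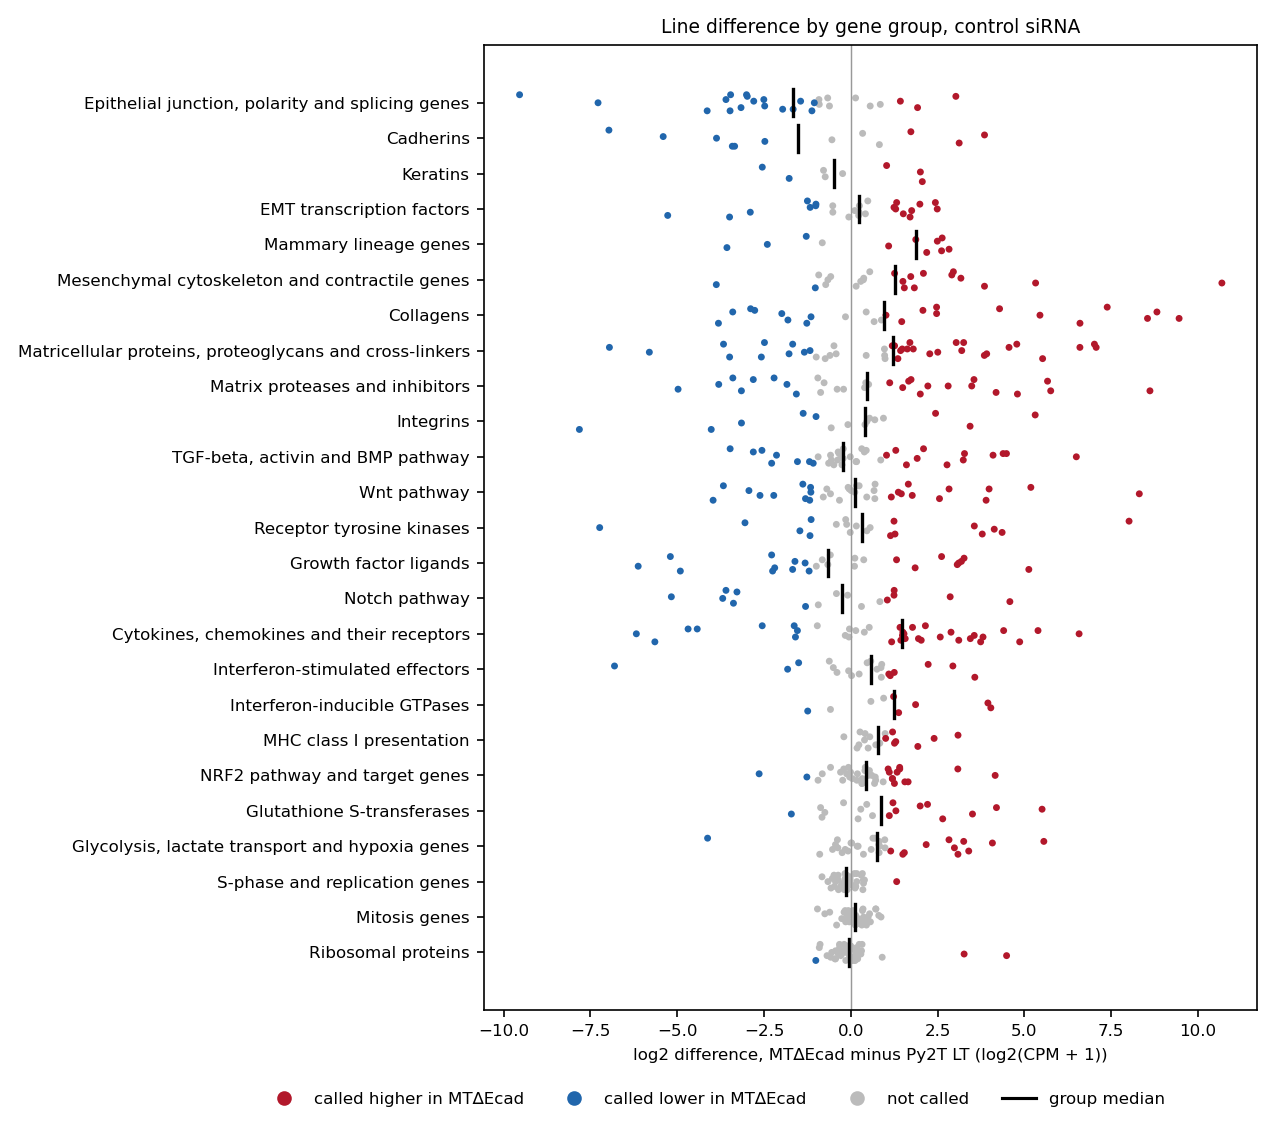
Each point is a tested gene of a listed group, placed by its log2(CPM + 1) difference between MT∆Ecad and Py2T LT, red where called higher in MT∆Ecad, blue where called lower and grey where not called, with the group median as a black bar. The replication and mitosis groups lie within 1 of 0 except Ccne2, whereas matrix, cytokine and epithelial groups spread over more than 10 units.

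Ligands and receptors of the TGF-beta family differed at several levels while the Smad genes named here were not called. Of 39 tested genes of the TGF-beta, activin and BMP pathway, 12 were higher, 8 lower and 19 not called, with a median of -0.22. Bmp4, a BMP ligand, had 89.3 and 91.9 CPM in MT∆Ecad and 0.0337 and 0 CPM in Py2T LT, and Tgfb2 had 31.3 and 27.0 CPM in MT∆Ecad and 0.371 and 0.513 CPM in Py2T LT. Tgfbr2, the type II TGF-beta receptor, had 464 and 476 CPM in MT∆Ecad and 70.4 and 65.8 CPM in Py2T LT, higher by 2.77 ± 0.10 (adjusted p = 3.1e-07, limma). Inhba, the activin A subunit, was lower, with 9.98 and 7.64 CPM in MT∆Ecad and 95.1 and 121 CPM in Py2T LT. Smad2, Smad3, Smad4 and Smad7 had differences of -0.22, -0.49, -0.34 and -0.58 and were not called. Pmepa1 and Tgfbi, known as TGF-beta targets, were lower. Pmepa1 had 118 and 129 CPM in MT∆Ecad and 580.2 and 517 CPM in Py2T LT. Tgfbi, a TGF-beta-induced matrix protein, had 3.30 and 3.43 CPM in MT∆Ecad and 49.2 and 47.0 CPM in Py2T LT.

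Secreted Wnt antagonists and Wnt ligands changed in both directions, with 11 of 35 tested Wnt genes higher and 10 lower. Sfrp2, a secreted Wnt-binding antagonist, had 320.2 and 353 CPM in MT∆Ecad and 0.135 and 0 CPM in Py2T LT, higher by 8.31 ± 0.12 (adjusted p = 1.9e-08, limma). Its relative Sfrp1 had 85.8 and 92.7 CPM in MT∆Ecad and 1.21 and 1.78 CPM in Py2T LT. Lef1, a nuclear effector of Wnt signalling, was lower, with 3.50 and 2.81 CPM in MT∆Ecad and 54.8 and 48.7 CPM in Py2T LT. In the Notch pathway the ligand Jag1 was lower, with 11.4 and 9.23 CPM in MT∆Ecad and 409 and 399 CPM in Py2T LT. The receptor Notch3 was higher, with 24.7 and 35.1 CPM in MT∆Ecad and 0.135 and 0.432 CPM in Py2T LT.

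Receptor tyrosine kinases and their ligands changed in both directions. Ddr2, a collagen-binding receptor tyrosine kinase, had 314 and 299 CPM in MT∆Ecad and 0.169 and 0.216 CPM in Py2T LT, higher by 8.01 ± 0.11 (adjusted p = 1.9e-08, limma). Pdgfrb, a PDGF receptor of pericytes and fibroblasts, had 661 and 794 CPM in MT∆Ecad and 44.3 and 60.2 CPM in Py2T LT. Ret, the GDNF-family receptor, had 0.551 and 0.369 CPM in MT∆Ecad and 229 and 207 CPM in Py2T LT, and Egfr had 17.8 and 18.3 CPM in MT∆Ecad and 40.7 and 43.3 CPM in Py2T LT. Ereg, the EGF receptor ligand epiregulin, fell to 0.0324 and 0.0369 CPM in MT∆Ecad, against 66.0 and 76.7 CPM in Py2T LT. Tgfa and Hbegf, further EGF receptor ligands, were lower by differences of -4.91 and -1.61, while Areg had a difference of -0.82 and was not called. Igfbp3, an IGF-binding protein, had 0.0324 and 0.0369 CPM in MT∆Ecad and 453 and 371 CPM in Py2T LT, and Igf1 itself had 8.91 and 7.79 CPM in MT∆Ecad and 0 and 0.0540 CPM in Py2T LT. In all, 8 of 20 tested receptor tyrosine kinases were higher and 5 lower, and 9 of 26 growth factor ligands were higher and 10 lower.

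Cytokine genes were the group with the most higher calls among those listed for signalling: 22 of 37 tested genes were higher and 8 lower, with a median of 1.49. Cxcl5, a neutrophil chemokine, had 147 and 142 CPM in MT∆Ecad and 0.540 and 0.513 CPM in Py2T LT. The monocyte chemokine Ccl2 had 86.0 and 50.6 CPM in MT∆Ecad and 0.945 and 1.73 CPM in Py2T LT, higher by 4.86 ± 0.26 (adjusted p = 3e-06, limma). Csf1, the macrophage growth factor, had 1292 and 987 CPM in MT∆Ecad and 142 and 119 CPM in Py2T LT. Il33, an alarmin, had 21.6 and 19.8 CPM in MT∆Ecad and 0 and 0.0540 CPM in Py2T LT. The IL-6 family ligands Il11 and Lif were lower: Il11 had 0.810 and 0.443 CPM in MT∆Ecad and 132 and 102 CPM in Py2T LT, and Lif had 25.7 and 15.4 CPM in MT∆Ecad and 128 and 115 CPM in Py2T LT. Their shared receptor Il6st was higher by 1.57. PyMT-1099 LT had 189 and 203 CPM of Ccl2 and 179.7 and 201 CPM of Il11, so the order of the 3 lines differed from gene to gene.

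Genes of interferon responses and antigen presentation were higher more often than lower. Interferons signal through STAT proteins to interferon-stimulated response elements (ISRE) in the promoters of antiviral genes. Over all tested genes, 12.7% were higher and 10.7% lower. Of 27 tested nucleic acid sensors, STATs and IRFs, 4 were higher and 23 not called. Of 9 tested interferon-inducible GTPases 5 were higher and 1 lower, and of 21 tested interferon-stimulated effectors 6 were higher and 3 lower. Of 18 tested genes of MHC class I presentation 7 were higher and 0 lower (limma). At an unadjusted p under 0.05, 14 of these 18 were positive and 0 negative, and edgeR and DESeq2 each called 8 higher and 0 lower. Trim30a, an interferon-induced ubiquitin ligase, had 18.0 and 15.5 CPM in MT∆Ecad and 0.270 and 0.755 CPM in Py2T LT. Gbp2, a guanylate-binding protein, had 25.4 and 23.8 CPM in MT∆Ecad and 9.11 and 8.61 CPM in Py2T LT, higher by 1.38 ± 0.14 (adjusted p = 0.0001, limma). Tap1 and Tap2, which together form the peptide transporter of antigen presentation, were higher by 1.93 and 3.09. H2-K1 and B2m, the class I heavy and light chains, had differences of 0.50 and 0.39 and were not called.

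A few interferon genes were lower. Oasl2 and Oas3, of the oligoadenylate synthetase family, had differences of -1.82 and -1.50, and the GTPase gene Ifi47 had a difference of -1.24. Trim25, a ubiquitin ligase of RIG-I signalling, had 0 CPM in both MT∆Ecad libraries and 109 and 113 CPM in Py2T LT, at least 1066-fold lower in MT∆Ecad. Ddx58, the RIG-I gene itself, had 55.1 and 52.8 CPM in MT∆Ecad and 13.3 and 16.3 CPM in Py2T LT and was higher by 1.81 ± 0.13. Stat2, Irf1, Irf9 and Cgas were not called. The promoters of Trim30a (chr7:104465194-104465443, minus strand, match 36 bases before the start), Gbp2 (chr3:142620413-142620662, plus strand, 59 bases before) and the GTPase gene Igtp (chr11:58199306-58199555, plus strand, 34 bases before) hold the ISRE core GAAANNGAAA, read on both strands, as their RefSeq sequences show, with the match in capitals.
Trim30a: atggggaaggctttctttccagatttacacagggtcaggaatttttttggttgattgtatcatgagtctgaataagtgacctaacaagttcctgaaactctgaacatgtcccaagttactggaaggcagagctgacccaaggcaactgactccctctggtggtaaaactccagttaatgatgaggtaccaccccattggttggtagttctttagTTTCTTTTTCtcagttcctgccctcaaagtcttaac
Gbp2: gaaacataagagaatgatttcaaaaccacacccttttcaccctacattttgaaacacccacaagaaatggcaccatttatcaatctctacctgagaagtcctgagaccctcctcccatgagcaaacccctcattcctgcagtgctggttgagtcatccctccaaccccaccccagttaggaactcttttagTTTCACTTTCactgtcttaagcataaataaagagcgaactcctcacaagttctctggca
Igtp: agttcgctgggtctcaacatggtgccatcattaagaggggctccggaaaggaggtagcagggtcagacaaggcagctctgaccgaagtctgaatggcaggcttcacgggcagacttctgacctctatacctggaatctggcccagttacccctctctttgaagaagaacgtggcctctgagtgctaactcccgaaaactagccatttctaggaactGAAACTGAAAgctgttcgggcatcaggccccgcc
These letters stood in 2.98% of all windows of this length, in 6 of 7 tested GTPase genes with a window and in 5 of 17 effector genes. Of the 6 GTPase genes that held them, Gbp2, Gbp7 and Igtp were higher and Gbp3, Irgm1 and Irgm2 were not called. Of the 5 effector genes, Trim30a and Bst2 were higher, Oas3 was lower and Isg15 and Ifitm2 were not called. Without MT∆Ecad replicate 1 the difference of Gbp7 was 0.96 and its call was lost.

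The gene for NRF2, which the series set out to knock down, differed at baseline. Nfe2l2 had 208 and 209 CPM in MT∆Ecad and 89.7 and 83.6 CPM in Py2T LT, higher by 1.26 ± 0.08 (adjusted p = 7.9e-06, limma). NRF2 activates genes of glutathione synthesis, detoxification and NADPH supply. Of 40 tested pathway and target genes, 12 were higher and 2 lower, with a median of 0.43. Ephx1, a microsomal epoxide hydrolase, had 165 and 175 CPM in MT∆Ecad and 8.06 and 9.12 CPM in Py2T LT. The classical targets Nqo1, Hmox1 and Gclc had differences of 0.50, 0.70 and 0.93 and were not called. Keap1, the inhibitor of NRF2, had a difference of 0.05.

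Glutathione S-transferases were higher in 9 of 18 tested genes and lower in 1 (limma), whereas edgeR and DESeq2 each called 9 higher and 3 lower. Mgst1, a microsomal transferase, had 44.3 and 57.8 CPM in MT∆Ecad and 0.135 and 0.135 CPM in Py2T LT. Gsta4 and Gstm1 were higher by 4.19 and 3.50. Aldh3a1, an aldehyde dehydrogenase of cornea and tumours, had 1682 and 1576 CPM in MT∆Ecad and 19.8 and 12.03 CPM in Py2T LT, higher by 6.63 ± 0.26 (adjusted p = 6.1e-07, limma). Aldh1l1, a folate-pathway enzyme, went the other way, with 0.0324 and 0.0738 CPM in MT∆Ecad and 70.9 and 73.7 CPM in Py2T LT. The 8 tested Ugt1a genes on chromosome 1 shared differences between 3.96 and 4.12, and these genes have common exons, so their counts are not independent.

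Genes of glycolysis and hypoxia were higher more often than lower. Of 34 tested genes of glycolysis, lactate transport and hypoxia 11 were higher and 1 lower, with a median of 0.75 against -0.005 over all tested genes. At an unadjusted p under 0.05 (limma), 21 of the 34 were positive and 7 negative. Adm, the vasoactive peptide adrenomedullin, had 43.5 and 51.5 CPM in MT∆Ecad and 0 and 0.0540 CPM in Py2T LT, and Epas1, the hypoxia factor HIF-2alpha, had 66.9 and 83.2 CPM in MT∆Ecad and 8.06 and 7.77 CPM in Py2T LT. Car12, a carbonic anhydrase, was the gene that was lower, with 0 CPM in both MT∆Ecad libraries and 15.2 and 17.7 CPM in Py2T LT. The main glycolytic enzymes Ldha, Eno1 and Aldoa had differences of 0.81, 0.81 and 0.82 and were not called. In lipid metabolism, Plin4 and Lpl, for lipid droplets and triglyceride hydrolysis, were higher by 6.37 and 5.73, Fads3, a fatty acid desaturase, was lower with a difference of -7.29, and Fasn had a difference of -0.63. The adipocyte marker Adipoq had at most 0.0337 CPM in any of the 4 libraries. Lep, another listed adipocyte marker, had 1.04 and 0.886 CPM in MT∆Ecad and 0 CPM in both Py2T LT libraries, and was not tested.

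Proliferation genes mostly had differences near 0. Of 42 tested S-phase and replication genes, 1 was higher (Ccne2) and 0 lower, and of 41 mitosis genes 0 were called in either direction (limma). At an unadjusted p under 0.05 without the fold threshold, 6 replication genes were positive and 13 negative, and 8 mitosis genes were positive and 5 negative. The recovered counts gave the same numbers of calls with edgeR and with DESeq2, 1 and 0 in replication and 0 and 0 in mitosis. Ccne2, which encodes cyclin E2, had 60.1 and 39.3 CPM in MT∆Ecad and 15.7 and 22.7 CPM in Py2T LT. The medians were -0.13 and 0.13. Ribosomal protein genes were also close, with 2 of 52 higher, 1 lower and a median of -0.04. The higher ones, Rps18 and Rps2, have many processed copies in the genome, so reads may be shared and their values are uncertain.

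Cell cycle inhibitors and the p53 pathway held large differences in single genes. Cdkn2a, which encodes p16INK4a and p19ARF (chr4:89274473-89294619), had 0 and 0.111 CPM in MT∆Ecad and 53.9 and 54.9 CPM in Py2T LT, lower with a difference of -5.72 ± 0.12 (adjusted p = 4e-08, limma). The adjacent inhibitor gene Cdkn2b had 0 CPM in both MT∆Ecad libraries and 35.6 and 34.5 CPM in Py2T LT, at least 337-fold lower. PyMT-1099 LT had 53.8 and 59.3 CPM of Cdkn2a and 46.3 and 51.8 CPM of Cdkn2b, so both genes were near 0 in MT∆Ecad alone. Mtap, the methylthioadenosine phosphorylase gene whose start lies 137.1 kb from that of Cdkn2a, was higher, with 677 and 651 CPM in MT∆Ecad and 181 and 195 CPM in Py2T LT. Trp53 and its target Cdkn1a had differences of -0.14 and -0.18 and were not called. Myc had 139.5 and 94.4 CPM in MT∆Ecad and 304 and 291 CPM in Py2T LT and was lower with a difference of -1.36 ± 0.17.

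Mdm2, the ubiquitin ligase that degrades p53, lay in a run of neighbouring genes that were all lower. Runs of at least 5 consecutive tested genes called in the same direction were listed along each chromosome after the values had been seen, and 23 were found. The run from Cpm to Dyrk2 (chr10:117629500-118889245) held 8 tested genes, with differences from -6.45 to -2.83 and a median of -4.34. Mdm2 had 79.3 and 76.6 CPM in MT∆Ecad and 1560.3 and 1812 CPM in Py2T LT, and Nup107, a nuclear pore subunit, had 121 and 108 CPM in MT∆Ecad and 2397 and 2426 CPM in Py2T LT. Cpm, a carboxypeptidase gene at the edge of the run, had 0 CPM in both MT∆Ecad libraries and 83.5 and 89.9 CPM in Py2T LT. The nearest tested gene before the run, Cpsf6, had 157 and 160.2 CPM in MT∆Ecad and 143 and 166 CPM in Py2T LT and was not called. PyMT-1099 LT had 2696 and 2979.7 CPM of Mdm2 and 2506 and 2400.4 CPM of Nup107. Dyrk2, a protein kinase gene at the other edge, had 20.6 and 19.1 CPM in MT∆Ecad, 135 and 160 CPM in Py2T LT and 35.8 and 43.3 CPM in PyMT-1099 LT, so PyMT-1099 LT was not near Py2T LT for every gene of the run. DNA copy number was not measured, and its part in these levels was not tested.

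Chromosome 14 had the largest shares of genes called in either direction, 27.1% higher and 23.3% lower among 387 tested genes, against 12.7% and 10.7% over all chromosomes. A running median over 31 consecutive tested genes kept its sign over 4 stretches. Across the first stretch, 211 genes that end at Ipo4, the median difference was 0.82, with 82 genes higher and 17 lower, and across the 128 genes from Wdfy2 to Tmtc4 it was -0.96, with 10 higher and 61 lower. Between them lay 37 genes with a median of -0.69 and 11 genes with a median of 1.18. In the siNrf2 libraries the medians of the 4 stretches, in order along the chromosome, were 0.88, -0.52, 1.01 and -0.95. Running medians of at least 0.8 or at most -0.8 were otherwise seen in 33 windows of chromosome 10 and 3 of chromosome 13, against 216 of 357 windows on chromosome 14. The longest run in the list, 13 genes from Bmp4 to Dlgap5, lay in the stretch with the median of 0.82, so the difference of Bmp4 stood among neighbours that were also higher. The 31-gene windows overlap, and the stretches were drawn from these values and carry no test.

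**Figure D4:**
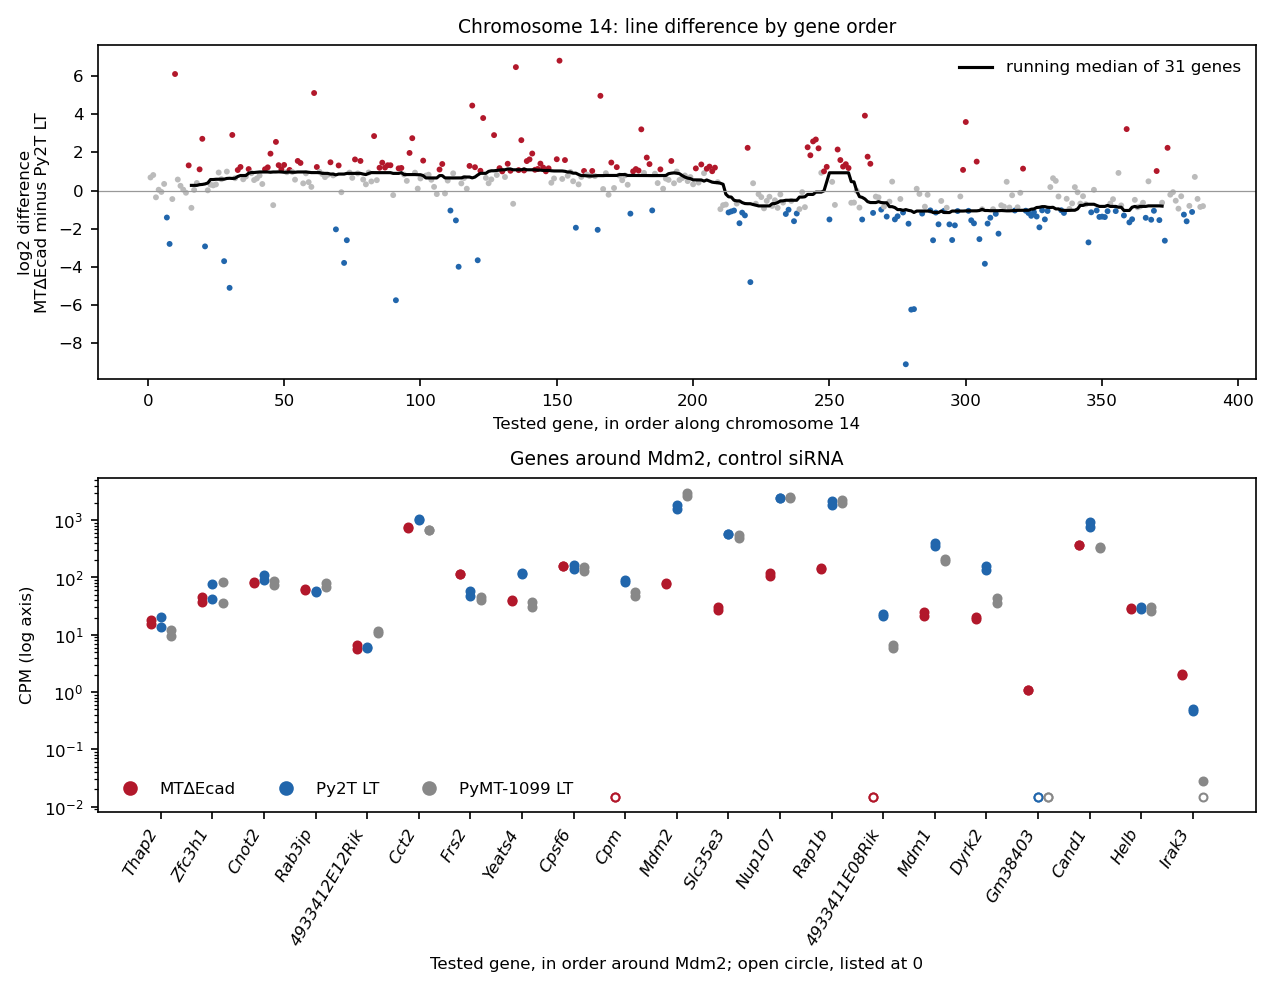
Upper panel, log2 difference of MT∆Ecad minus Py2T LT for the 387 tested genes of chromosome 14 in their order, coloured by call (red higher, blue lower in MT∆Ecad), with the running median of 31 genes in black. Lower panel, CPM on a log axis for the 10 tested genes on each side of Mdm2, where the 8 genes from Cpm to Dyrk2 are lower in MT∆Ecad than in Py2T LT and PyMT-1099 LT.

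The differences between the lines were measured again in the siNrf2 libraries of the same lines, which are other libraries but cannot be taken as independent. Same-numbered siCtl and siNrf2 libraries deviated together from their group means, with correlations over genes of 0.64 in MT∆Ecad and 0.86 in Py2T LT. Whether such libraries shared a culture is not given in the sources used here. The targeted gene Nfe2l2 had 50.8 and 54.0 CPM in MT∆Ecad siNrf2 libraries, against 208 and 209 CPM in MT∆Ecad siCtl libraries. It had 21.9 and 24.5 CPM in Py2T LT siNrf2 libraries, against 89.7 and 83.6 CPM in Py2T LT siCtl libraries, and values did not overlap in either line. In the siNrf2 libraries, 3269 of the same 11736 genes were called (27.9%), with 1802 higher in MT∆Ecad (15.4%) and 1467 lower (12.5%). A total of 2500 genes were called in the same direction with both siRNAs, which is 91.0% of the control-siRNA calls and 76.5% of the siNrf2 calls, and 1 gene was called in opposite directions. Acta2 had a difference of 11.22 and Lamb3 of -10.08 in siNrf2, and Cdh1 had -3.56.

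**Figure D5:**
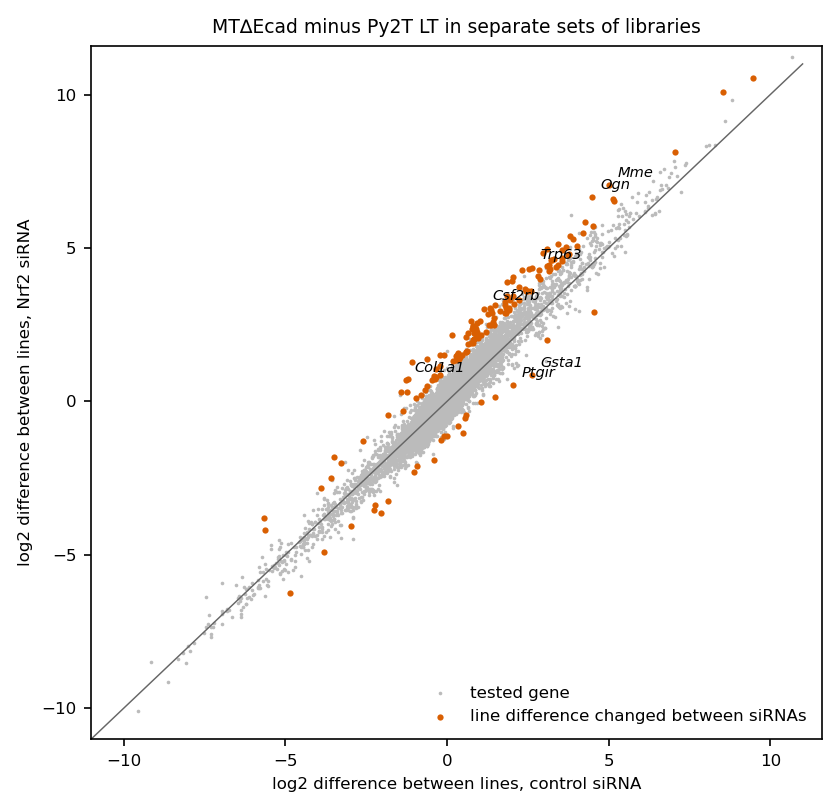
Log2 difference between MT∆Ecad and Py2T LT in the siNrf2 libraries (vertical) against that in the control-siRNA libraries (horizontal), 1 point per tested gene, with the line of equality. Orange points are the 156 genes whose line difference changed between the siRNAs, most of them above the line.

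The change of the line difference itself, siNrf2 minus control siRNA, was called for 156 genes (1.33%), of which 133 (1.13%) had a more positive and 23 (0.196%) a more negative difference with siNrf2. In the fit that pairs replicate numbers within each line, the counts were 193 and 36. With a pseudocount of 0.1 in place of 1, 98 genes were called, 76 of them more positive, and 77 of the 156 lost their call. Ogn, the proteoglycan osteoglycin, had a line difference of 4.49 with control siRNA and 6.65 with siNrf2, a change of 2.16 (adjusted p = 0.00014, limma). Mme, the peptidase neprilysin, changed by 2.05, and the receptor subunit Csf2rb changed by 1.87. Nqo1, the quinone reductase, changed by -1.53 and Gsta1, a glutathione transferase, by -1.78. The line difference of Nqo1 was 0.50 with control siRNA and -1.03 with siNrf2, and that of Gsta1 was 2.65 and 0.87. The interferon genes Gbp2, Igtp, Trim30a and Tap2 changed by 1.61, 1.56, 1.36 and 1.32.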

How the data were processed

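RNA was measured in 12 libraries of 3 lines with control or Nrf2 siRNA, 2 per group, each a biological duplicate per the series text. The authors deposited CPM per Entrez gene ID. The submitters' processing notes name STAR and the build mm10, while the counting tool, annotation and strand setting are not given in the sources used here. Of 24454 IDs, 24374 were named through RefSeq and 7 through GENCODE. The largest unnamed ID held 0.797% to 1.01% of reads.

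Deposited CPM values were whole multiples of the value of 1 read within 0.01 read, which gave back the read counts. At 27088970 to 37070635 reads, a count of 0 allows up to 0.111 CPM (3 reads), for counting error only. Duplicates differed beyond sampling noise and were counted separately.

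Differences of log2(CPM + 1) were fitted with limma 3.58.1 (R 4.3.3) over the 6 control-siRNA libraries, for genes with at least 1 CPM in at least 2 of the 4 libraries, with Benjamini-Hochberg adjustment. The siNrf2 line contrast was fitted in the same way over the 6 siNrf2 libraries, and the difference of differences over all 12 libraries. Scripts were tested on simulated data. On the recovered counts, edgeR 4.0.16 called 3047 genes and DESeq2 1.42.0 called 3028. Same-numbered control and siNrf2 libraries deviated together in every line (correlations 0.64, 0.86 and 0.79 over genes). Same-numbered libraries of Py2T LT and PyMT-1099 LT did so too (correlations 0.58 to 0.81), so their shared deviation was not particular to a line. Those of MT∆Ecad did not deviate together with either of these lines (correlations -0.42 to -0.02). What the replicate numbers mark is not given in the sources used here. Other alternatives were the pseudocount, filter, libraries, scaling, replicate block and leaving out each library, and a crossed replicate block was chosen after seeing the data. Genes named are the 15 largest called each way, up to 4 per list each way, the 5 with the smallest adjusted p for a changed line difference and a fixed set of EMT and pathway genes. Other genes, among them those chosen by chromosome position and those not called, were chosen after their values were seen. The comparison, its members and the gene lists were chosen with earlier results of these data known. Figures were drawn with matplotlib 3.10.9 under Python 3.11.15. Results of some genes are not reported here.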

Additional observations from a re-analysis of the deposited data

Results flagged for a closer look

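The difference between MT∆Ecad and Py2T LT changed between siNrf2 and control siRNA for 24 of the 175 genes named here. Each was tested as a difference of differences (limma, Benjamini-Hochberg adjusted p under 0.05 and a log2 change of at least 1). Of these, 5 were named because of this change, so the share is not comparable with the 156 of 11736 over all genes. Values are the line difference with siNrf2 minus that with control siRNA. A positive value is a more positive difference, which was larger for Ogn but not for every gene. The difference went from -3.49 with control siRNA to -1.80 with siNrf2 for Tgfbi, and from -1.82 to -0.44 for Oasl2. It changed sign for Ifi47 (-1.24 to 0.32) and Col1a1 (-1.27 to 0.71). Matrix and growth-factor genes changed by 2.16 (Ogn), 1.97 (Col1a1), 1.69 (Tgfbi), 1.54 (Col6a2), 1.09 (Col3a1) and 1.02 (Pdgfrb). Interferon and antigen-presentation genes changed by 1.62 (Irgm2), 1.61 (Gbp2), 1.57 (Ifi47), 1.56 (Igtp), 1.53 (Gbp3), 1.38 (Oasl2), 1.36 (Trim30a), 1.32 (Tap2), 1.07 (Tap1) and 1.06 (Ddx58). Mme, the peptidase neprilysin, changed by 2.05, the unnamed-function transcript 4931408D14Rik by 2.01, the hypoxia factor gene Epas1 by 1.88, the receptor subunit gene Csf2rb by 1.87 and the basal-cell factor gene Trp63 by 1.73. Gsta1 changed by -1.78, Nqo1 by -1.53 and the prostacyclin receptor gene Ptgir by -1.51.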

How the results depend on the processing

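Of the 2746 calls, 0 were called in the opposite direction in any alternative run, but not all were kept. With at least 5 CPM, 581 were not tested; leaving out 1 library lost 97 to 180, all 12 libraries 14, DESeq2 7 and no filter 3. The number called lay between 2165 (at least 5 CPM) and 3047 (edgeR), and leaving out 1 library gave 2664 to 2869. A lone library left in a line was assumed to vary like the others. The replicate block over the 6 control-siRNA libraries gave 2746 calls. Replicate numbers did not pair the 2 lines, since same-numbered MT∆Ecad and Py2T LT libraries had a correlation of deviations of -0.30, and a crossed block, chosen after seeing the data, also gave 2746 calls. The change of the line difference between siRNAs depended on the pseudocount: with 0.1 in place of 1, 98 genes were called, 76 more positive, against 156 and 133. With the replicate block within lines, 229 were called, 36 of them more negative, against 23. The cause was not tested. Irf9 gained a call with a pseudocount of 0.1 (-1.13), edgeR (-1.16) and DESeq2 (-1.14), and Irgm2 with the same alternatives (1.52, 1.62 and 1.64). Leaving out 1 library also called Areg (-1.03), F11r (-1.04), Gclc (1.01), Hmox1 (1.06) and Stat2 (1.16), and ended the calls of Col1a1 and Gbp7. At this depth a count of 0 does not exclude a level of up to 0.111 CPM.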
